A study of Homo sapiens with 6 samples.

Results

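A set of 10 genes for secreted peptides and growth factors, several of them released under stress, was followed in MDA-MB-231 cells exposed to riluzole. The genes were ADM2, ADM, GDF15, INHBE, FGF21, STC1, STC2, VEGFA, VEGFB and VEGFC. They were found by gene symbol among 30818 genes on the array, and all 10 were present, with 16 of the 47231 probes. ADM2 entered the set because of its difference between riluzole and vehicle in these same arrays, and the other genes were added by function with those results known. The riluzole against vehicle values of all 10 are therefore descriptions. Where the side of the limma threshold is stated for them, it describes these arrays and supports nothing.

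MDA-MB-231 is an established human triple-negative breast cancer line, which lacks oestrogen and progesterone receptors and HER2 overexpression. Riluzole, given in amyotrophic lateral sclerosis, is a sodium channel blocker that dampens the release of glutamate. The 3 riluzole samples had 25 µM of the drug and the 3 vehicle samples had DMSO, each for 24 hours per the sample labels, while the series title calls the treatment overnight. Each sample was read on 1 single-colour Illumina bead array, all 6 came from 1 cell line, and the replicates are not said to be separate cultures, so their spread may be technical.

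Stressed cells answer amino acid shortage and misfolded protein through the integrated stress response, in which phosphorylated eIF2α lowers general translation and raises that of the transcription factor ATF4. ATF4 and its partner DDIT3 are known to act on the genes of several secreted factors, among them GDF15, FGF21, INHBE, ADM2, STC2 and VEGFA. Hypoxia-inducible factors act on ADM, VEGFA and STC1 as well. In tumours these proteins are known as signals to vessels, lymphatics and distant tissues.

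Upstream sequence was matched by symbol in a RefSeq promoter table (GRCh38.p14) for 7 of the 10 genes, all but INHBE, STC1 and VEGFA. The 250 bases before the start site are shown for ADM2, the listed gene with the largest difference, for GDF15, the listed gene with the next largest difference, and for FGF21, which stayed below detection. They lie at chr22:50481293-50481542, chr19:18385908-18386157 and chr19:48755274-48755523, all on the plus strand. Capitals mark matches, on either strand, to 4 motifs: the C/EBP-ATF response element TGATGNAA, the cyclic AMP response element TGACGTCA, and the hypoxia element cores ACGTG and GCGTG.
ADM2: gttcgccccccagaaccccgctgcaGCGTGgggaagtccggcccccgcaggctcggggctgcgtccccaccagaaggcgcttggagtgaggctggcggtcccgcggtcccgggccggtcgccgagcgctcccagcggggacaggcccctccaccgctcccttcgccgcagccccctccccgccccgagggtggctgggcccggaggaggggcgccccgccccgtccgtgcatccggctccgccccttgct
GDF15: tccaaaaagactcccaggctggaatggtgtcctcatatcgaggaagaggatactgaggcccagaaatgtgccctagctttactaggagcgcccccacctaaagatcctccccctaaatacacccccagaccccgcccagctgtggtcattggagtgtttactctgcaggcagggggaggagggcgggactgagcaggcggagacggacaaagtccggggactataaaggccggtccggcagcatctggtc
FGF21: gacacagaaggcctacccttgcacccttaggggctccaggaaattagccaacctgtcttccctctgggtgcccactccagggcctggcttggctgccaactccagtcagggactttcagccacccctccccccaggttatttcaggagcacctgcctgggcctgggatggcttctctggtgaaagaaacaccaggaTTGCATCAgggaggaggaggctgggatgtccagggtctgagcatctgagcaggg
FGF21 held 1 match to TGATGNAA, read on the minus strand and starting 54 bases before the gene, a motif present in the same window of 3.14% of 35116 promoters. ADM2 held 1 GCGTG, a core found in 32.2% of promoters and also in the windows of ADM, STC2, VEGFB and VEGFC, which are not shown. GDF15 held 0 of the 4 motifs. TGACGTCA was found in 1.65% and ACGTG in 18.5% of promoters, and both in 0 of the 3 windows shown. These matches only say where the letters stand, and motifs farther from the start were not searched.

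The arrays were alike in depth. Between 20516 and 20959 probes were detected per array at a detection p under 0.05, the median raw signal was 127 to 133, and the negative controls averaged 107 to 111. Across genes, arrays of 1 group correlated at 0.992 to 0.994 and arrays of different groups at 0.989 to 0.991. All 8 markers expected in this mesenchymal line, such as VIM and CD44, were detected on all 6 arrays. Of 8 hormone receptor, HER2 and luminal markers, ESR1, PGR and FOXA1 were detected on 0 arrays, while ERBB2, GATA3, EPCAM and KRT19 were detected on all 6. Summed over those 8 genes the raw signal was 17371 to 19307 with vehicle and 14038 to 15563 with riluzole. KRT19 carried most of this gap, with raw means of 13930 and 10596, while ERBB2 had 1374 and 1422. Among 9 endothelial, blood and fibroblast markers, 5 were detected on 0 arrays and 2 on all 6, CD14 (raw means 1054 with vehicle and 1179 with riluzole) and PECAM1 (203 and 237). Their summed raw signals were 1828 to 2148 with vehicle and 2048 to 2417 with riluzole, and the part of either marker list in the results was not tested. In such bulk RNA, more transcript per cell and more cells with the transcript cannot be told apart.

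ADM2 had the largest difference of the listed genes and was higher on all 3 riluzole arrays than on any vehicle array. Probes detected on at least 3 of 6 arrays were analysed, which kept 9 of the 10 genes and 12 of their 16 probes. FGF21 was the gene left out. In the limma fit over all genes, an adjusted p under 0.05 was reached by 1 of the 9, ADM2, and by 1.18% of all 14887 genes tested, 0.752% higher and 0.43% lower. ADM2 and VEGFA were the 2 of 9 genes whose normalized groups did not overlap, where 22.7% of all genes had such groups. Because ADM2 was chosen on this contrast, nothing is read from its call or from these shares. By sign, 6 of the 9 genes were positive and 3 negative, while 50.2% of all genes were positive. The median difference was 0.18 log2 units for the 9 genes and 0.00075 over all genes. The signs of INHBE, STC2 and VEGFB are not settled: INHBE and STC2 were near background, and the VEGFB probes differed in sign. ADM2 was chosen for its difference. No lean toward higher expression is therefore read from these counts or medians. The absolute log2 fold changes of the 9 genes had a median of 0.21, against 0.14 over all genes.

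**Figure D1:**
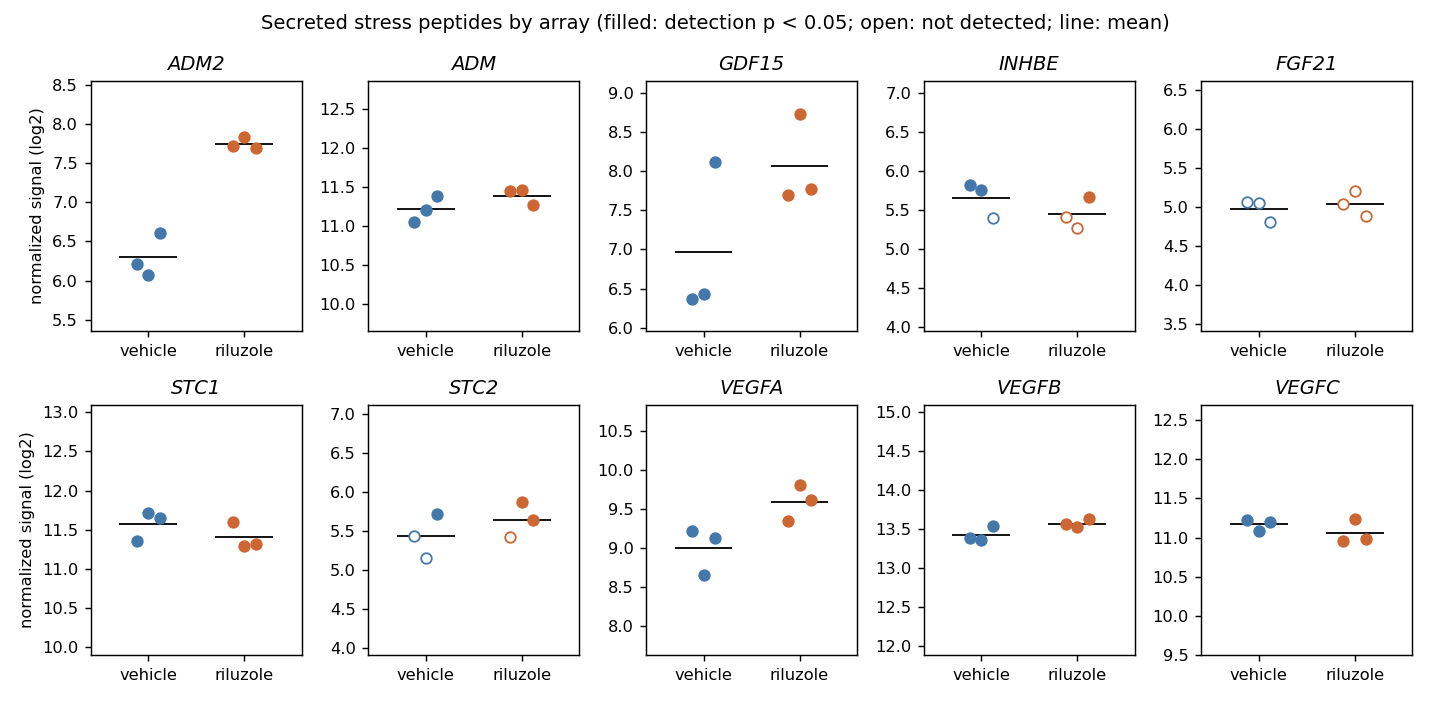
Normalized log2 signal of the brightest probe of each of the 10 genes on the 3 vehicle and 3 riluzole arrays (points), with group means (lines). Each panel spans the same number of log2 units, filled points have a detection p under 0.05, and the groups lie apart only for ADM2 and VEGFA.

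ADM2, also known as intermedin, is a peptide of the calcitonin gene-related family that dilates vessels. Its probe read 169.6, 157 and 191 raw signal units on vehicle arrays 1, 2 and 3, and 291, 337 and 294 on the riluzole arrays. The 3 riluzole arrays all lay above the 3 vehicle arrays, and the vehicle values were near the dimmest signal called detected on any array, which was 135 to 143. On the normalized log2 scale the means were 6.30 ± 0.28 (SD, n = 3) with vehicle and 7.75 ± 0.07 with riluzole. The fold was 2.74 (95% CI 2.16 to 3.48), and 0.0739% of all genes tested had an absolute difference at least that large. Nothing is read from that share, since ADM2 was chosen on this contrast. In the authors' processed values the same probe went from 52.99, 46.7 and 74.3 with vehicle to 172, 188 and 168 with riluzole. The size depends on background subtraction, since the log2 fold change was 1.46 with it and 0.84 without it.

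ADM, the related vasodilator adrenomedullin, a well-known hypoxia-induced gene, read 2333, 2450.5 and 2701 raw units with vehicle and 2688, 3084 and 2476 with riluzole. These groups overlapped, with riluzole replicate 3 below vehicle replicate 3. The normalized means were 11.21 ± 0.17 and 11.39 ± 0.11, a 1.13-fold ratio (95% CI 0.932 to 1.38). The interval of ADM stays under the lower bound of that of ADM2. Because ADM2 was chosen on this contrast, nothing is read from that gap.

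Both adrenomedullins signal through the receptor CALCRL, which needs a RAMP partner protein, and both are amidated by the enzyme PAM. CALCRL was not detected on any array, with raw signals of 77.1 to 101. RAMP1 was detected on all 6 arrays (797 to 1001 raw units), and its log2 difference was 0.04 ± 0.12 (SE; limma adjusted p = 0.910). RAMP2 was dim but detected on all 6 arrays, at 0.08 ± 0.15 (limma adjusted p = 0.849), and RAMP3 was detected on 1 array of each group. A further RAMP2 probe had a log2 difference of -0.06. PAM gave 6042 to 7774 raw units and differed by -0.02 ± 0.10 log2 units (limma adjusted p = 0.952). The 3 tested genes, RAMP1, RAMP2 and PAM, did not pass in either direction, and CALCRL and RAMP3 were not tested.

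GDF15, a distant member of the TGF-beta superfamily that acts on the hindbrain receptor GFRAL and limits food intake, had the second largest difference and the largest spread. Vehicle arrays 1, 2 and 3 read 178, 177 and 368 raw units, and the riluzole arrays read 287, 546 and 305. Vehicle replicate 3 exceeded 2 of the 3 riluzole arrays, so the groups overlapped, although the other 2 vehicle arrays lay below all riluzole arrays. The normalized means were 6.97 ± 0.99 and 8.07 ± 0.58, with a fold of 2.14 (95% CI 1.01 to 4.53). Without vehicle replicate 3 the log2 fold change was 1.67, against 1.10 with all arrays, and without riluzole replicate 2 it was 0.76. Its vehicle SD of 0.99 log2 units compares with a median of 0.147 over all genes.

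INHBE encodes the beta E subunit of activin E, a liver-enriched hormone of the same superfamily. Its probe was barely above background, at 151, 143 and 128 raw units with vehicle and 127, 127 and 142 with riluzole. Only 2 of the vehicle arrays and 1 of the riluzole arrays detected it, so neither a fold nor a direction is given, and the groups overlapped. The relative INHBA, the subunit of activin A, was detected on 0 arrays.

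FGF21, a fasting and stress hormone that needs the coreceptor KLB, was below detection on every array. Its brighter probe read 115, 111 and 94.5 raw units with vehicle and 109, 123 and 102 with riluzole. A further probe read 92.4 to 104 with vehicle and 92.1 to 105 with riluzole. Both probes sat among the negative controls in both groups, so a difference was not detectable at this signal. Fitted without any detection filter, the log2 difference of FGF21 was 0.07 (95% CI -0.21 to 0.35). KLB was dim, at 142 to 170.1 raw units, and differed by 0.06 ± 0.16 log2 units (limma adjusted p = 0.911). The receptor FGFR1 passed detection on 2 arrays with vehicle and on 1 with riluzole, and its limma adjusted p was 0.758.

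The stanniocalcins are secreted glycoproteins named after a calcium-regulating hormone of fish. STC1 was bright, at 2880.5, 3443 and 3247 raw units with vehicle and 2989.6, 2748 and 2571 with riluzole. Its groups overlapped, and the normalized means were 11.57 ± 0.19 and 11.40 ± 0.17, a ratio of 0.889 (95% CI 0.714 to 1.11). STC2, known from other cells as an ATF4 target, read 134, 116 and 142 raw units with vehicle and 128, 156 and 141 with riluzole. Detection held for 1 of the vehicle arrays and 2 of the riluzole arrays, with a log2 difference of 0.21 (95% CI -0.19 to 0.60). Both intervals include no change, and the dim signal of STC2 gives it no direction.

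VEGFA, the growth factor that drives vessel growth through KDR, had the third largest difference. Its brightest probe read 714, 493 and 651 raw units with vehicle and 699.9, 1047 and 850.0 with riluzole. Riluzole replicate 1 lay just under vehicle replicate 1 on the raw scale, whereas after normalization the lowest riluzole array (9.34) lay above the highest vehicle array (9.22). The log2 fold change was 0.59 (95% CI 0.17 to 1.00). It ran from 0.46 to 0.60 over 10 other settings and from 0.41 to 0.71 over 6 fits on 5 arrays.

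A further VEGFA probe read 332, 221 and 287 raw units with vehicle and 294, 329 and 335 with riluzole. Its groups overlapped, and its fold was 1.27 (95% CI 0.921 to 1.74). The remaining VEGFA probe was detected on 0 arrays, at 73.4 to 98.5 raw units. Both detected probes had a positive difference, with overlapping intervals, and the transcripts that each one reads were not looked up.

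VEGFB, a ligand of FLT1 linked to lipid handling, was bright on its main probe, at 11775, 10621 and 11640.2 raw units with vehicle and 11282, 12451 and 12287 with riluzole. The ratio was 1.11 (95% CI 0.941 to 1.30), with overlapping groups. Its other 2 detected probes had the opposite sign, with log2 fold changes of -0.07 (95% CI -0.36 to 0.22) and -0.22 (-0.59 to 0.15), and a further probe was not detected. The mean of the kept VEGFB probes gave -0.049, so the gene has no settled direction here.

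VEGFC, the lymphatic growth factor and ligand of FLT4, read 2644, 2271 and 2392 raw units with vehicle and 1937, 2670.3 and 2056 with riluzole. Riluzole replicate 2 was the highest of all 6 arrays and the other 2 riluzole arrays the lowest. The ratio was 0.925 (95% CI 0.768 to 1.11). Of the VEGF receptors, KDR and FLT1 were detected on 0 arrays. The coreceptor NRP1 was bright (3520 to 4075 raw units) and differed by -0.01 ± 0.11 log2 units (limma adjusted p = 0.971). A further NRP1 probe differed by -0.10.

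**Figure D2:**
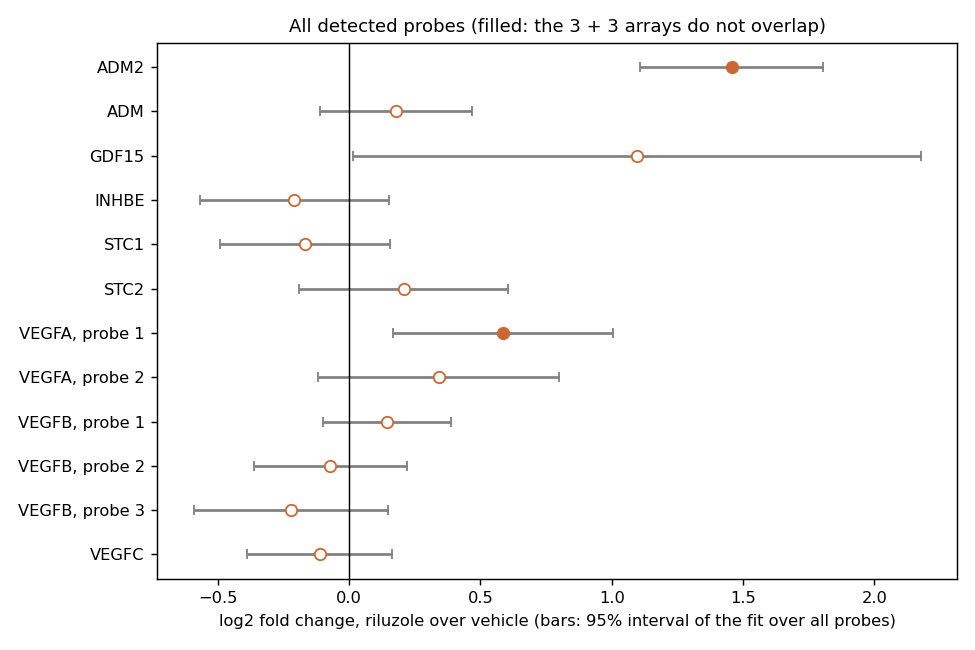
Log2 fold change of riluzole over vehicle (x axis) for the 12 detected probes of the 9 genes, with 95% intervals from the limma fit over all probes. The ADM2 probe stands at 1.46, the GDF15 interval is the widest, and the VEGFB probes fall on both sides of 0.

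Taken probe by probe, 1 of the 12 detected probes lay past the threshold, the ADM2 probe, where 0.698% of 20788 probes did. Groups did not overlap for 2 of these 12 probes, against 21.8% of all probes. Correlations with ADM2 were taken from the brightest probe of each gene. For VEGFB the other detected probes differed in the opposite direction, and INHBE and STC2 were near background. Across the 6 arrays the normalized values of VEGFA and VEGFB had Pearson correlations of 0.85 with ADM2, GDF15 0.78, ADM 0.72 and STC2 0.61. INHBE had -0.65 with ADM2, STC1 -0.48 and VEGFC -0.38. These values describe 6 arrays in 2 groups, which alone makes any gene that differs between groups resemble ADM2. The 5 tested genes most like ADM2 were LOC650155 (0.999), PHPT1 (0.996), KIF23 (0.996), IL20RB (0.996) and CNTRL (0.995, named CEP110 on the array). Their log2 fold changes were 0.49, 0.28, 0.56, 0.69 and 0.52, whose positive sign follows from how they were picked.

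**Figure D3:**
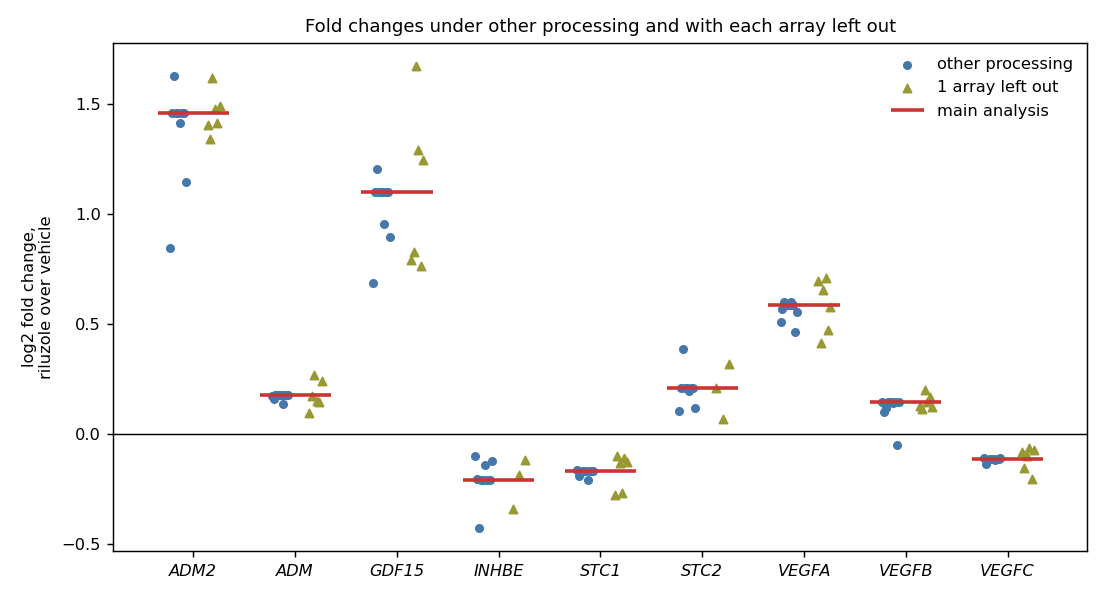
Log2 fold change of riluzole over vehicle for the 9 tested genes in the main analysis (red line), under other processing (circles) and with each array left out (triangles). ADM2 spans 0.84 to 1.63, GDF15 0.69 to 1.67, and VEGFB crosses 0 once.

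The log2 fold change of ADM2 was 0.84 to 1.63 over the 9 other settings that kept its probe and 1.34 to 1.62 over the 6 fits on 5 arrays. All reuse the arrays on which ADM2 was chosen, so this range shows the effect of processing on its size only. The strictest filter, a detection p under 0.01 on all arrays, removed ADM2 because vehicle replicate 2 had a detection p of 0.0117. GDF15 ran from 0.69 to 1.20 over the other settings. ADM, STC1 and VEGFC kept their signs in all 10 settings and 6 fits. INHBE and STC2 fell below the detection filter in 3 of the 6 fits on 5 arrays.

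Other genes of the same pathways were read from the same limma fit, with the listed genes left out of each list. The lists were chosen with earlier results of these data known. Their counts, signs and medians therefore describe these arrays and support nothing. The ATF4 integrated stress response list held 5 of 27 tested genes past the threshold, all higher with riluzole, beside 1.18% of all genes. Its median log2 fold change was 0.44, with 25 genes positive and 2 negative. Of the 27 genes, 17 had an unadjusted p under 0.05 in limma, beside 16.3% of all genes. NUPR1, a small chromatin-associated protein of the stress response, rose 2.27-fold (limma adjusted p = 0.00934). GPT2, an alanine aminotransferase, was 1.79-fold higher (0.0151), PHGDH, which starts serine synthesis, 1.85-fold (0.0185), and ASNS, asparagine synthetase, 1.84-fold (0.0201). ATF4 itself was 1.76-fold higher (0.0201). In the limma fit over all probes the next brightest ATF4 probe differed by 1.00 log2 units (adjusted p = 0.0393) and the dimmest by -0.09 (adjusted p = 0.862). With the authors' processed values the call of ATF4 ended (limma adjusted p = 0.0577). With the replicate number as a block NUPR1 was the only 1 of the 5 still past the threshold. The pseudokinase TRIB3 (0.65 log2 units, limma adjusted p = 0.0508) and DDIT3 (0.91, 0.115) had groups that did not overlap and did not pass, although TRIB3 passed in 6 and DDIT3 in 3 of 10 other settings. The count of 5 was 2 without vehicle replicate 1, 1 without vehicle replicate 2 or 3, 5 without riluzole replicate 1, and 1 without riluzole replicate 2 or 3. Over the other processing settings the count ran from 1 with the replicate number as a block to 15 without background correction.

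In the hypoxia list 1 of 28 tested genes passed, beside 1.18% of all genes. It was ANGPTL4, a secreted inhibitor of lipoprotein lipase (4.0-fold higher, limma adjusted p = 0.0168), whose other probe gave a log2 fold change of 0.19. The call ended without vehicle replicate 2 or riluzole replicate 1 or 3 (limma adjusted p 0.0504 to 0.0679), at log2 fold changes of 1.98 to 2.10. Without riluzole replicate 2, and with the strictest detection filter, the other probe became the brightest kept one, at 0.25 (limma adjusted p = 0.481) and 0.19 (0.418). The list median was -0.01, and HIF1A, the oxygen-regulated transcription factor, had 0.02 ± 0.10 (limma adjusted p = 0.960). Further HIF1A probes had log2 fold changes of 0.04 and -0.12. In the unfolded protein response list 0 of 22 passed in limma, beside 1.18% of all genes, with a median of 0.12. At an unadjusted p under 0.05 in limma there were also 0, beside 16.3% of all genes.

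Most receptors for the listed factors did not reach the detection filter. Of 21 on the array, 9 were tested and 0 passed in limma, beside 1.18% of all genes. At an unadjusted p under 0.05 in limma there were also 0, beside 16.3% of all genes, and the median log2 fold change was 0.04. Among family relatives such as other activin, PDGF and FGF genes, 5 of 15 on the array were tested, all negative (median -0.33), with 0 past the threshold in limma and 2 at an unadjusted p under 0.05, where 16.3% of all genes were. PDGFA was detected on 1 riluzole array only. Of 16 maturation and binding proteins, such as the protease FURIN and the signal peptidase subunits, 12 were tested and 0 passed, with 3 at an unadjusted p under 0.05 in limma, beside the same 16.3%.

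**Figure D4:**
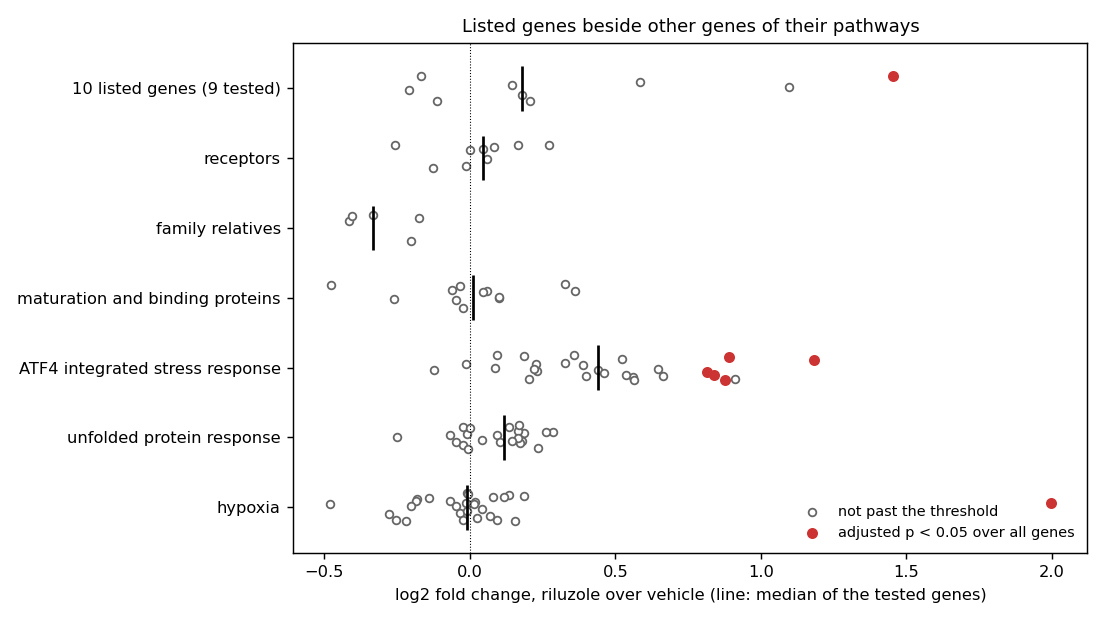
Log2 fold change of riluzole over vehicle for the 9 tested listed genes and for the tested genes of 6 lists, 1 point per gene, with medians as vertical lines. Filled points passed the threshold over all genes: ADM2, 5 genes of the ATF4 list and ANGPTL4 in the hypoxia list.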

How the data were processed

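Total RNA was measured on single-colour Illumina arrays, 3 per group. The authors deposited a raw intensity per probe (average bead signal, per the file headers, neither background-subtracted nor normalized) and a detection p-value, whose values step by 1 part in 770, the number of negative controls. The authors' processed intensity values, made in a way the sources do not state, rise with the raw signal of the same array, are linear and uncentred, have medians of 20.7 to 21.7 and lie below 0 for 19.3% to 22.1% of probes. They served as an alternative, floored at 16. The number of arrays limits precision.

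After removal of 979 control rows, limma 3.58.1 (R 4.3.3) applied neqc: normexp background correction from the detection p-values, an offset of 16, quantile normalization and log2, which draws folds of dim probes toward 1. A probe needed a detection p below 0.05 on 3 or more arrays (20788 did), and the brightest kept probe stood for each of 14887 genes. Array symbols were updated through RefSeq names (4626 probes renamed, 3324 unnamed). lmFit and eBayes with group as the only term gave two-sided p-values, adjusted by the Benjamini-Hochberg method over all genes or all probes, with a threshold of 0.05. The code was tested on simulated data. The listed genes, the pathway lists and the tests were chosen with earlier results of these data known. Named are all 10 listed genes, the called genes of each list, at most 4 by smallest p, a fixed set of receptors, relatives and regulators, and the 5 genes most correlated with ADM2. One planned pathway list is not reported here.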

Additional observations from a re-analysis of the deposited data

How the results depend on the processing

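Over all genes 176 passed (1.18%), over all probes 145 (0.698%), and 6 of 103 tested pathway genes outside the 10 listed ones, all 6 higher with riluzole. Over all genes, all probes and pathway genes these counts became 563, 684 and 17 without background correction, 360, 405 and 11 when each array had to give a detection p under 0.01, 661, 758 and 18 when eBayes used a robust intensity trend, and 362, 415 and 12 with an offset of 50. They were 94 and 47 over genes and probes with the authors' processed values, and 70 and 78 without a detection filter. With 1 array left out they ran from 21 to 41, 7 to 23 and 1 to 5. The count of listed genes was 2 without background correction and with the intensity trend, where VEGFA joined ADM2, and 0 with the stricter detection filter, which removes ADM2. Same-numbered samples did not deviate together (r = -0.146, -0.105 and 0.0011), and 0 samples matched their own number best. With 3 arrays per group these values are too few to decide whether the numbers pair the samples. With the replicate number as a block the counts were 22, 15 and 2. Median scaling, array weights, the mean of probes and an added fold of 1.5 kept all counts within 1.5 times the main ones. Signs turned only near 0: VEGFB at -0.049 and HIF1A at -0.019 with the mean of probes, HIF1A at -0.0075 with median scaling and PAM at 0.0074 with array weights. With arrays left out, PAM ran from -0.073 to 0.014, RAMP1 from -0.047 to 0.14, RAMP2 from -0.028 to 0.25, KLB from -0.069 to 0.19, NRP1 from -0.054 to 0.057 and HIF1A from -0.028 to 0.080. The cause of these shifts was not tested. Signals near background limit INHBE, STC2, FGF21 and the vehicle values of ADM2.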

Other observations

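Within their groups, vehicle replicate 3 had the highest normalized value for 5 of the 9 tested genes (ADM2, ADM, GDF15, STC2 and VEGFB), where it was highest for 33.4% of all genes. Riluzole replicate 2 was the highest of its group for 6 of the 9 (ADM2, ADM, GDF15, STC2, VEGFA and VEGFC), against 33.9% of all genes. These shares describe 6 arrays and were not tested.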
